A study of Mus musculus with 4 samples.

Results

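The collagen and laminin genes were taken as the entries of the deposited TPM table whose symbol is a collagen chain (Col, digits, a, digits) or a laminin chain (Lama, Lamb or Lamc with a digit). The rule found 55 of 52189 genes, of which 44 are collagens and 11 are laminins. The data come from RNA immunoprecipitation and sequencing (RIP-seq), which reads the RNA that comes down with an antibody. Nuclear lysates of AML12 cells were divided between anti-SAFB (the SAFB RIP, 2 libraries) and anti-IgG (the IgG RIP, 2 libraries), and the input set aside was not analysed here. SAFB, scaffold attachment factor B, is a protein of the nuclear matrix with RNA and DNA binding domains, and the IgG RIP serves as its background. AML12 is an established mouse hepatocyte line, derived from mice with a human TGF-alpha transgene. All 4 libraries share this line, medium with 10% fetal bovine serum, ITS supplement and 0.1 µM dexamethasone, UV crosslinking, nuclear extraction and ribosomal RNA depletion. The comparison asks which RNAs are recovered with SAFB above the IgG background.

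Collagens are trimeric proteins of the extracellular matrix whose chains carry long repeats of glycine followed by any pair of residues (Gly-X-Y), the sequence that lets chains wind into a triple helix. Laminins are cross-shaped trimers of an alpha, a beta and a gamma chain, and together with the type IV collagens they form the sheets called basement membranes. In liver most fibrillar collagen is made by stellate cells and fibroblasts, while hepatocytes are known as a source of Col18a1. The RNAs are measured here inside the nucleus, so the values describe nuclear RNA brought down by an antibody and not matrix protein.

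Of the 44 collagens, 9 were listed at 0 in every library (Col3a1, Col6a4, Col6a6, Col10a1, Col13a1, Col19a1, Col24a1, Col25a1 and Col26a1). A further 21 collagens and 4 laminins had values above 0 but missed the limit of 1 TPM in at least 2 of the 4 libraries. They were the fibrillar Col1a1, Col1a2, Col2a1, Col5a1, Col5a2, Col5a3 and Col11a1, the type IV Col4a3 and Col4a4, the beaded-filament Col6a2, Col6a3 and Col6a5, the short-chain Col8a1 and Col8a2, the FACIT (fibril-associated) Col9a1, Col9a2, Col14a1 and Col22a1, the transmembrane Col17a1 and Col23a1, Col28a1, and the laminins Lama1, Lama2, Lama3 and Lamc3. This left 14 collagens and 7 laminins for the test, and all 21 reached 1 TPM in all 4 libraries, so none entered through 1 group alone. Just inside the limit, Col6a1 had 3.72 and 3.03 TPM in the SAFB RIP and 5.28 and 1.96 TPM in the IgG RIP. Just outside it, Col5a1 had 0.663 and 1.33 TPM in the SAFB RIP and 0.568 and 0.726 TPM in the IgG RIP. Col1a1, the main fibrillar collagen of scar tissue, was also outside, at 1.76 and 0.188 TPM in the SAFB RIP, 0.647 TPM in 1 IgG library and 0 in the other. Lamc3, a laminin gamma chain gene, had 0.321 and 0.427 TPM in the SAFB RIP and 1.26 and 0.389 TPM in the IgG RIP.

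The libraries are bulk, so in the level of an RNA fewer cells and less RNA per cell cannot be told apart. Both antibodies were given portions of divided lysates, per the labels, and which libraries came from 1 lysate is not stated. Read depth is unknown, since TPM does not keep it, and values carry no counting interval. The libraries held 22389 and 21006 identifiers above 0 in the SAFB RIP and 16031 and 17278 in the IgG RIP. Between replicates, the median absolute log2 difference was 0.166 in the SAFB RIP and 0.37 in the IgG RIP. Safb itself averaged 934 ± 76.3 TPM in the SAFB RIP and 166 ± 5.99 TPM in the IgG RIP (SD, n = 2), at a log2 fold change of 2.49 ± 0.11 (SE). The hepatocyte label was checked against 13 markers, of which 12 passed 1 TPM in all 4 libraries, with sums of 6371 to 6621 TPM in the SAFB RIP and 7530 to 7562 TPM in the IgG RIP. Of 12 stellate cell and fibroblast markers 7 were listed at 0 in every library, Dcn, Lum, Pdgfrb and Acta2 among them. Only Postn (periostin) exceeded 1 TPM, at 43.0 and 33.7 TPM in the SAFB RIP and 24.7 and 19.5 TPM in the IgG RIP. Of 8 endothelial markers 6 were listed at 0 throughout and none reached 1 TPM. The part of these cell types in the results was not tested. Of 6 bile duct cell markers 5 were tested, with summed levels of 3070 to 3095 TPM in the SAFB RIP and 2618 to 2703 TPM in the IgG RIP, while Epcam stayed under 1 TPM. Of these 5, 1 rose and 2 fell in limma, beside 29.8% higher and 8.30% lower over all genes tested. Krt19 and Sox9 fell, and Krt7 and Spp1 were not called. Cftr rose, with 2.88 and 3.56 TPM in the SAFB RIP, against 0.698 and 0.170 TPM in the IgG RIP. It thus entered the test through the SAFB RIP alone, and its call carries no weight. Of 6 macrophage and leukocyte markers Cd14, Cd68 and Csf1r were tested, with sums of 133 to 147 TPM in the SAFB RIP and 124 to 144.5 TPM in the IgG RIP, and the defining Adgre1 and Clec4f were listed at 0.

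The coding sequences of the members show what sets the families apart. Read from the transcript models, the 14 collagens tested held a median of 22.9% glycine (GGN) codons, from 9.17% to 31.2%, against 7.05% to 9.39% in the 7 laminins and a median of 6.25% over the genes tested with a coding sequence. The longest uninterrupted run of Gly-X-Y triplets was 30 to 338 triplets in the collagens and 2 to 3 in the laminins. Col27a1 had a run of 217 triplets and 33 exons of exactly 54 bases, while the longest run of the type IV collagen Col4a1 was 40 triplets, type IV chains being known for interrupted repeats. The following exons lie wholly inside such runs and are shown because they display this repeat in members with very different values. GGN codons that open a triplet are in capitals, and each exon is given 5′ to 3′ on the coding strand.
Col27a1: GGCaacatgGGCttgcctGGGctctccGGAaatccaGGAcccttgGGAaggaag
Col4a1: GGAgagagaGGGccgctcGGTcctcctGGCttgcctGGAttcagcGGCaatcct
Col18a1: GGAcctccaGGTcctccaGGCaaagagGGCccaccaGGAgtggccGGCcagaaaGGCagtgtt
Col7a1: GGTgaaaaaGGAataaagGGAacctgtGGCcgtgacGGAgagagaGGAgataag
They are exon 7 of Col27a1 (chr4:63245069-63245122, plus strand), exon 7 of Col4a1 (chr8:11245211-11245264, minus strand), exon 13 of Col18a1 (chr10:77077159-77077221, minus strand) and exon 107 of Col7a1 (chr9:108980207-108980260, plus strand). Sequences and positions are from GENCODE M21 on mm10.

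Of the 21 collagen and laminin genes tested, 5 passed the test. Lamc1 and Col12a1 rose in the SAFB RIP, and Lama5, Lamb2 and Col7a1 fell. In limma on log2(TPM + 1), the scale of all fold changes here, with Benjamini-Hochberg adjustment over all genes at a threshold of 0.05, 1 of 14 collagens was higher and 1 lower, and 1 of 7 laminins was higher and 2 lower. Over all 16647 genes tested the same rule called 29.8% higher and 8.30% lower, 38.1% in all. The median log2 fold change was -0.15 in the collagens (range -1.004 to 1.14) and 0.15 in the laminins, beside 0.46 over all genes tested. On deposited values the median of both families thus lay below that of all genes. With the GC trend removed (described with GC content) it lay only slightly above. It was then 0.48 in the collagens and 0.53 in the laminins, beside 0.44 over all genes, and these small differences were not tested. The genes tested include some, such as Cftr, that reached 1 TPM in the SAFB RIP alone, whereas the members reached it in all libraries. The part of such genes in the shares and medians over all genes, also in those used for centring, was not measured. Both SAFB libraries lay above the IgG libraries in 3 collagens and 3 laminins, beside 52.3% of all genes tested. They lay below in 8 collagens and 2 laminins, beside 21.4% of all genes tested, and the groups overlapped in 3 collagens and 2 laminins. The spread of log2 fold changes had an SD of 0.54 over the 14 collagens and 0.82 over the 7 laminins.

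**Figure D1:**
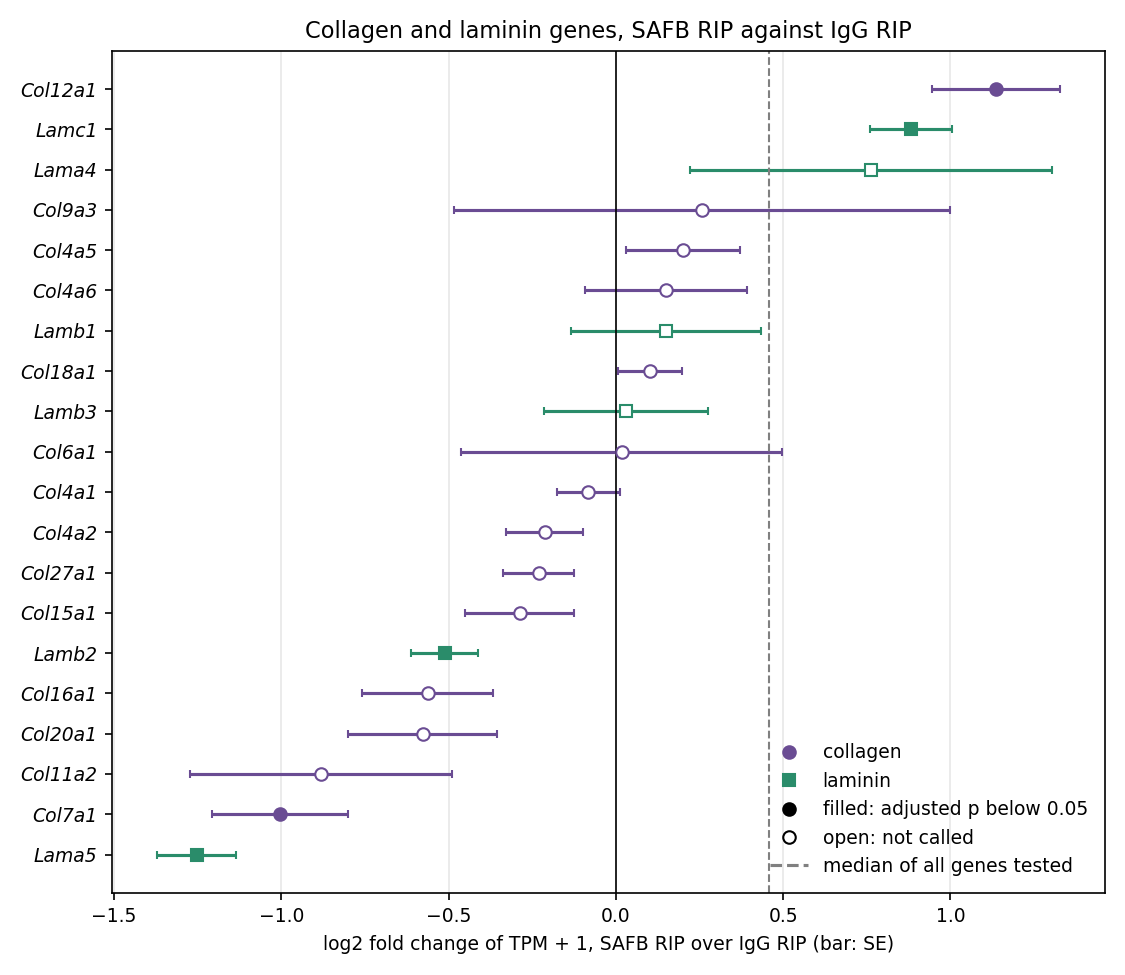
Log2 fold change of TPM + 1 in the SAFB RIP over the IgG RIP for the 14 collagens (circles) and 6 of the laminins (squares) tested, with SE bars from limma; filled symbols passed an adjusted p of 0.05 and the dashed line is the median of all genes tested, 0.46. Col12a1 and Lamc1 are the filled symbols on the right, and Lamb2, Col7a1 and Lama5 those on the left.

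The laminin chains moved apart. Lamc1, the gene of the gamma chain found in most laminin trimers (chromosome 1, 153218922 to 153332786, minus strand), had 556 and 470.4 TPM in the SAFB RIP, against 286 and 268 TPM in the IgG RIP. The groups did not overlap, and Lamc1 rose by 0.88 ± 0.12 (log2, SE; limma, Benjamini-Hochberg adjusted p = 0.0108). Lama5, the gene of an alpha chain typical of mature epithelial and vascular basement membranes (chromosome 2, 180176373 to 180225859, minus strand), had 187 and 212 TPM in the SAFB RIP, against 504 and 449.9 TPM in the IgG RIP. Its SAFB libraries were both far below the IgG libraries, and it fell by 1.25 on the log2 scale (SE 0.12; limma adjusted p = 0.0060). Lamb2, the gene of a beta chain that pairs with these chains in the kidney filter and at the neuromuscular junction (chromosome 9, 108479736 to 108490530, plus strand), had 346 and 374 TPM in the SAFB RIP, against 531 and 495 TPM in the IgG RIP. It fell by 0.51 (SE 0.10; limma adjusted p = 0.0219), again with no overlap. These 3 genes held 93.5% to 94.4% of all laminin TPM in the SAFB libraries and 95.0% to 97.0% in the IgG libraries. Their order of level was Lamc1, Lamb2, Lama5 in both SAFB libraries and Lamb2, Lama5, Lamc1 in both IgG libraries.

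Ratios within a library do not depend on how libraries are scaled to each other. The TPM ratio of Lamc1 to Lamb2 was 1.61 and 1.26 in the SAFB RIP, against 0.538 and 0.541 in the IgG RIP. The ratio of Lamc1 to Lama5 was 2.97 and 2.22 in the SAFB RIP, against 0.568 and 0.596 in the IgG RIP, a difference of 2.14 on the log2 scale. The ratio of Lama5 to Lamb2 was 0.541 and 0.567 in the SAFB RIP, against 0.948 and 0.908 in the IgG RIP. None of these 3 ratios overlapped between the groups. For the ratios with Lamc1 this was fixed by the choice of genes. Lamc1 lay above in both SAFB libraries, and Lamb2 and Lama5 lay below. Those ratios are thus no further support for the calls, and neither is that of Lama5 to Lamb2, since both genes were picked as called. The smallest two-sided p of an exact permutation test of 2 against 2 libraries is 0.333, so the ratios are given as values with no p.

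**Figure D2:**
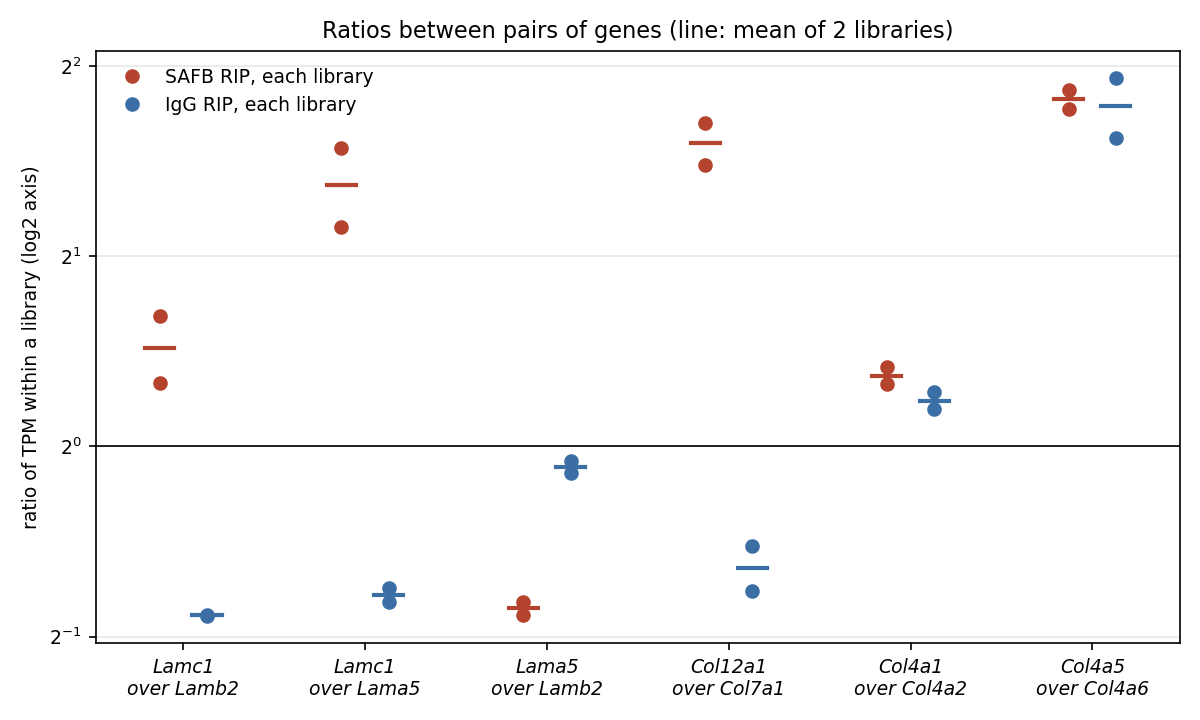
Ratios of TPM between pairs of collagen or laminin genes within each library (log2 axis), with SAFB RIP points left of IgG RIP points and short lines at the mean of 2 libraries. Lamc1 over Lamb2 is above 1 in both SAFB libraries and near 0.54 in both IgG libraries, while Col4a5 over Col4a6 overlaps between the groups.

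The other laminins tested were lower in level and none was called. Lama4, the gene of an alpha chain of vascular basement membranes, had 13.8 and 16.7 TPM in the SAFB RIP and 4.88 and 14.5 TPM in the IgG RIP, and its groups overlapped (log2 fold change 0.76 ± 0.54). Its IgG libraries were far apart, and its value depended on which was kept. It stood at 1.46 without IgG RIP replicate 2 and at 0.065 without IgG RIP replicate 1 (limma adjusted p = 0.00444 and 0.82), with the lone IgG library assumed to vary like the SAFB pair. Lamb3, a beta chain gene of the epithelial anchoring laminin, had 18.9 and 26.1 TPM in the SAFB RIP and 20.5 and 23.1 TPM in the IgG RIP, while Lama3, the alpha chain gene of that laminin, stayed at or under 0.253 TPM. Lamb1, the beta chain gene of many tissues, had 9.66 and 9.35 TPM in the SAFB RIP, against 8.44 and 8.50 TPM in the IgG RIP, at 0.15 ± 0.28.

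**Figure D3:**
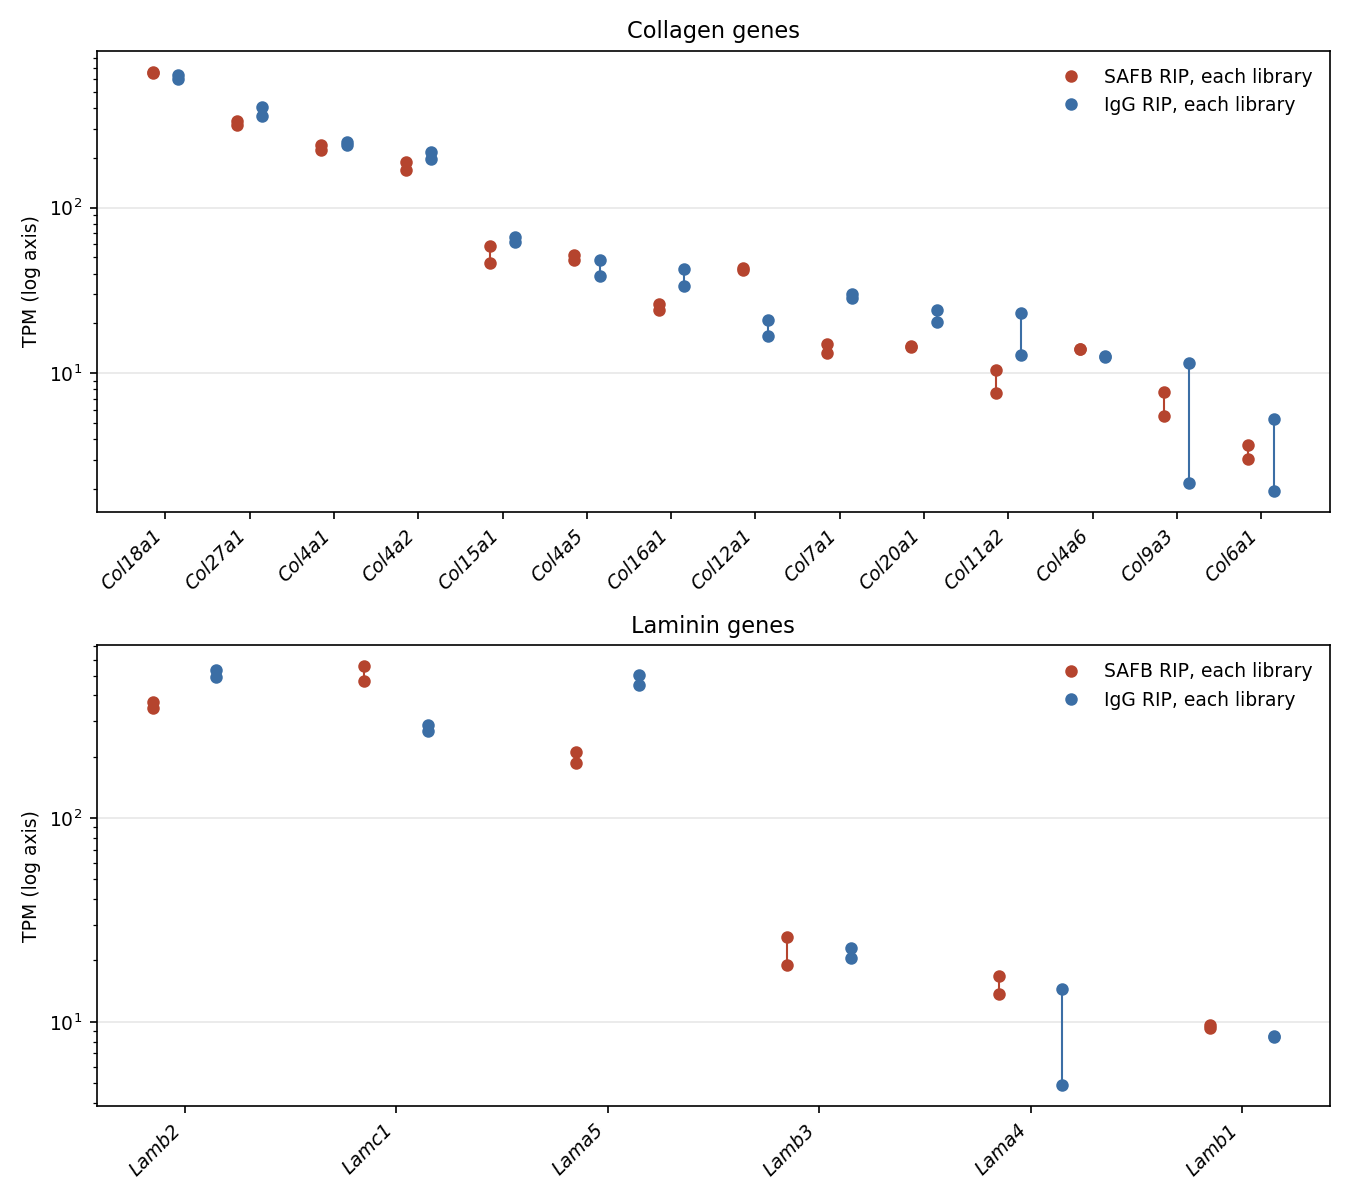
TPM of each library (log axis) for the 14 collagens and 6 of the laminins tested, ordered by mean level, with SAFB RIP libraries left of IgG RIP libraries. Col18a1 is the highest collagen in both groups, and Lama4 and Col9a3 have IgG libraries far apart.

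Among the collagens, the members with the highest levels were those of basement membranes and of Col27a1. Col18a1, a multiplexin of basement membranes whose end fragment is endostatin (chromosome 10, 77052178 to 77166548, minus strand), had 652 and 661 TPM in the SAFB RIP, against 630 and 593 TPM in the IgG RIP. The groups did not overlap, but the difference of 0.10 ± 0.09 was not called (limma adjusted p = 0.435). Col27a1, a fibrillar collagen known from cartilage (chromosome 4, 63214004 to 63334991, plus strand), had 314 and 333 TPM in the SAFB RIP, against 402 and 358 TPM in the IgG RIP (-0.23 ± 0.11, adjusted p = 0.156). With Col4a1 and Col4a2 they held 85.4% of all collagen TPM in each SAFB library and 84.6% to 84.9% in the IgG libraries. The collagens together took 0.163% ± 0.00539 of TPM in the SAFB RIP and 0.17% ± 0.00411 in the IgG RIP (SD, n = 2). The laminins took 0.114% ± 0.00185 in the SAFB RIP and 0.132% ± 0.00605 in the IgG RIP. In both families the SAFB shares lay below the IgG shares without overlap, but in the collagens the nearest libraries almost met. The collagen shares were 0.159% and 0.1666% in the SAFB RIP, against 0.1731% and 0.1673% in the IgG RIP. A difference between the families was not tested.

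The type IV collagens, which form the network of basement membranes, come in head-to-head gene pairs that share a promoter region. Col4a1 (chromosome 8, 11198423 to 11312826, minus strand) had 223 and 237.5 TPM in the SAFB RIP, against 240.1 and 248 TPM in the IgG RIP. Its partner Col4a2 (chromosome 8, 11312805 to 11449287, plus strand) had 167 and 189.5 TPM in the SAFB RIP, against 197 and 216 TPM in the IgG RIP. Both were below the IgG libraries in both SAFB libraries and neither was called (-0.08 ± 0.09 and -0.21 ± 0.12). Their exons overlap by 22 bases on opposite strands and the libraries are strand-specific, per the labels, but the use of strand in counting is not given in the sources used here. Col4a5 (chromosome X, 141475385 to 141689234) had 48.2 and 51.7 TPM in the SAFB RIP and 38.6 and 48.5 TPM in the IgG RIP, with overlap (0.20 ± 0.17). Its neighbour Col4a6 had 14.1 TPM in both SAFB libraries, against 12.6 and 12.7 TPM in the IgG RIP. The ratio of Col4a1 to Col4a2 was 1.33 and 1.25 in the SAFB RIP, against 1.22 and 1.14 in the IgG RIP, and that of Col4a5 to Col4a6 was 3.42 and 3.66 in the SAFB RIP, against 3.08 and 3.83 in the IgG RIP. The third pair, Col4a3 and Col4a4, known from the kidney filter, stayed under 1 TPM in every library.

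The 2 collagens that passed do not belong to that network. Col12a1, a collagen that sits on fibril surfaces (a FACIT; chromosome 9, 79598991 to 79718831, minus strand), had 43.2 and 41.8 TPM in the SAFB RIP, against 16.9 and 20.9 TPM in the IgG RIP. It rose by 1.14 ± 0.19 with no overlap (limma, Benjamini-Hochberg adjusted p = 0.0155). Col7a1, the collagen of the anchoring fibrils that fasten epithelia to connective tissue (chromosome 9, 108953586 to 108984875, plus strand), had 13.3 and 15.0 TPM in the SAFB RIP, against 28.6 and 30.1 TPM in the IgG RIP. It fell by 1.004 on the log2 scale with no overlap (SE 0.20; adjusted p = 0.0236). The TPM ratio of Col12a1 to Col7a1 was 3.25 and 2.79 in the SAFB RIP, against 0.591 and 0.695 in the IgG RIP. It could not overlap, since the 2 genes were picked for their opposite calls, so it is no further support. Of the 4 FACIT collagens tested, 1 rose and 3 were not called, beside 29.8% higher and 8.30% lower over all genes tested. Gly-X-Y runs took 8.12% of the codons of Col12a1 and 48.0% of those of Col7a1. They took 11.4% in Col20a1, at a log2 fold change of -0.58, and 78.8% in Col4a5, at 0.20, neither called. A link between runs and direction was not tested. Col16a1 had 26.2 and 24.2 TPM in the SAFB RIP, against 42.4 and 33.5 TPM in the IgG RIP, and was not called (-0.56 ± 0.19, adjusted p = 0.0830).

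Col20a1, also a FACIT, had 14.5 and 14.6 TPM in the SAFB RIP, against 24.0 and 20.5 TPM in the IgG RIP, and was not called either (-0.58 ± 0.22). Its start overlaps BX649560.1, an annotated transcript on the same strand (79 shared exonic bases) that had 159.5 and 170.7 TPM in the SAFB RIP, against 69.2 and 68.6 TPM in the IgG RIP, so the value of Col20a1 is uncertain. Col15a1, the other multiplexin, had 46.6 and 58.8 TPM in the SAFB RIP, against 66.1 and 62.3 TPM in the IgG RIP (-0.29 ± 0.16). Col11a2, a fibrillar collagen of cartilage, had 7.63 and 10.5 TPM in the SAFB RIP, against 23.3 and 12.9 TPM in the IgG RIP, at -0.88 ± 0.39 and not called. Col9a3 and Col6a1 were low and overlapped between the groups.

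All 5 calls ended when a SAFB library was left out, in fits where the lone SAFB library is assumed to vary like the IgG pair, whose spread was wider. Limma adjusted p-values were then 0.139 to 0.226 without SAFB RIP replicate 1 and 0.116 to 0.2 without SAFB RIP replicate 2, with each of the 5 directions kept. Over all 4 fits that left out a library, log2 fold changes were 0.99 to 1.28 for Col12a1, 0.76 to 1.003 for Lamc1, -1.34 to -1.17 for Lama5, -0.57 to -0.46 for Lamb2 and -1.08 to -0.92 for Col7a1. All 5 remained called without either IgG library, in fits where the lone IgG library is assumed to vary like the narrower SAFB pair.

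Because the median gene was 0.46 higher in the SAFB RIP, the members were also placed relative to it by centring each library on its median. By that scale 7 of 14 collagens were lower and 1 higher, and 2 of 7 laminins were lower and 0 higher in limma (1 higher at an unadjusted p of 0.05), beside 17.6% of all genes lower and 16.4% higher (34.1% in all). Col27a1, Col4a1, Col4a2, Col15a1, Col16a1 and Col20a1 joined Col7a1 among the lower collagens, and Col27a1 stood at -0.69 and Col4a1 at -0.54. Lama5 stood at -1.71 and Lamb2 at -0.97, both called. Col12a1 stayed called at 0.68 (adjusted p = 0.0484), and Lamc1, at 0.42, did not (adjusted p = 0.0744). The fibrillar, type IV and FACIT collagens tested had centred medians of -1.02 (2 genes), -0.43 (4 genes) and -0.61 (4 genes).

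Members with a higher transcript GC content tended to have lower log2 fold changes, with exceptions such as Col18a1 (60.6% GC, log2 fold change 0.10). The transcripts of the 14 collagens had a median GC content of 58.5% and those of the 7 laminins 53.0%, beside 49.5% over all genes tested. Col12a1 had the lowest GC content of the 21, at 48.3%, and Lamc1 had 53.0%. Lama5 had 59.9%, Lamb2 58.8% and Col7a1 61.6%, GC percentiles of 92.2 to 97.1 among the genes tested. Across the 21 members GC content and log2 fold change had Pearson's r = -0.79 and Spearman's rho = -0.75, as a description over genes that share 4 libraries. Over the 16611 genes with a transcript the values were r = -0.32 and rho = -0.38. In the bin of 55 to 60% GC the median over all genes was -0.22, and in the bin of 45 to 50% it was 0.76.

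**Figure D4:**
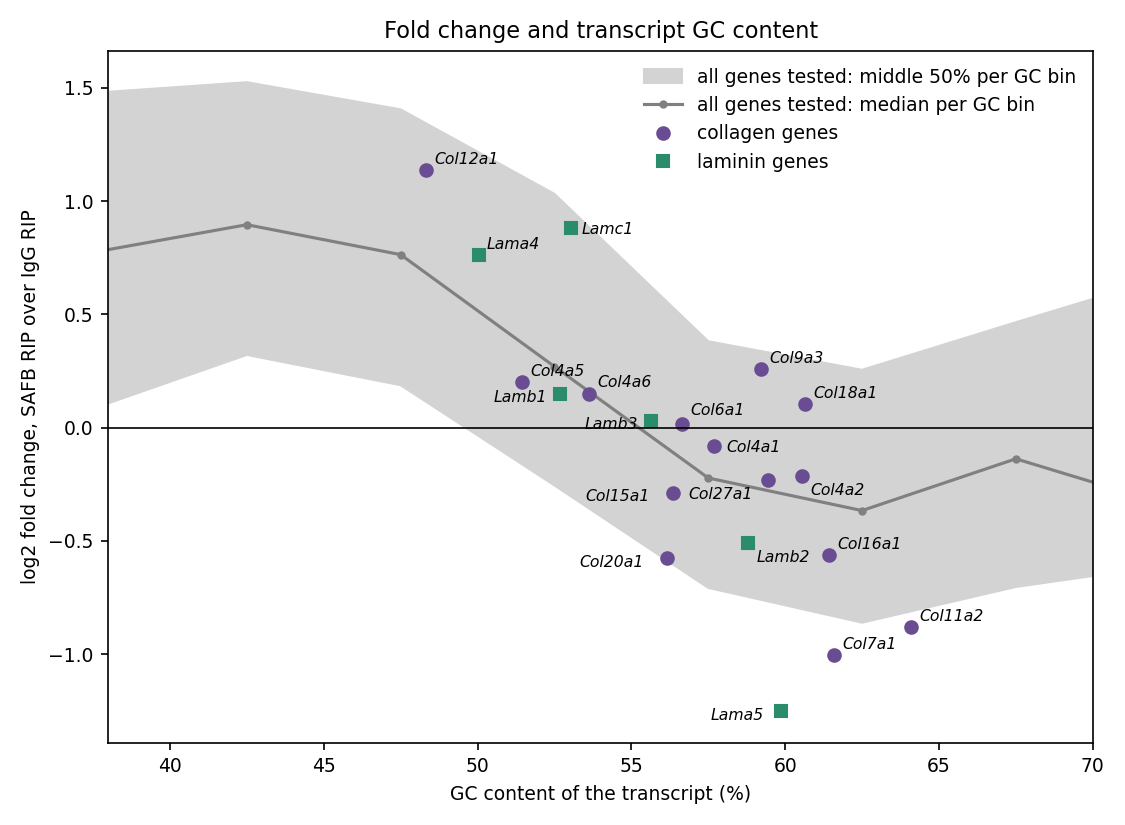
Log2 fold change in the SAFB RIP over the IgG RIP against transcript GC content (%) for 14 collagens (circles) and 6 laminins (squares), with the median (line) and middle 50% (band) of all genes tested in bins of 5 percentage points. Lama5 and Col7a1 lie below the band at a GC content near 60%, as does Col11a2 (not called) at 64.1%. Col12a1 and Lamc1 lie above the median line.

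With a smooth GC trend removed from each library, 5 of 14 collagens were higher and 0 lower (0 at an unadjusted p of 0.05), and 1 of 7 laminins was higher and 1 lower in limma, beside 26.0% of all genes higher and 4.90% lower (30.9% in all). On that scale 3 of the calls on deposited TPM were kept, Lama5 at -0.48 (adjusted p = 0.0189), Lamc1 at 1.09 (adjusted p = 0.00716) and Col12a1 at 0.87 (adjusted p = 0.0279). Col7a1 was not called at -0.21, and Lamb2 turned to 0.23 and was not called. Col18a1 at 0.89, Col27a1 at 0.53, Col4a1 at 0.60 and Col4a2 at 0.57 passed as higher. That scale keeps the overall shift between the groups, with a median of 0.44 over all genes, and Lamb2 lay below this median. Relative to 0, the directions of these 4 collagens and of Lamb2 therefore depend on the scale. Lama5, Lamc1 and Col12a1 kept theirs on deposited, centred and GC-adjusted values.

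A purine-rich word, GAAGA, was counted in the same transcripts, on the sense strand with overlaps allowed, since purine-rich sites have been described for SAFB proteins in human cells. Coding sequence of Lamc1 held 3.32 GAAGA per kb and that of Col12a1 2.39, while Lama5 held 0.986, Lamb2 0.926 and Col7a1 1.02, beside a median of 3.27 over 11936 genes. Col18a1, which was not called, held 3.27. The density of Lamc1 was thus close to that of the median gene, and those of Col12a1 and of the 3 members that fell were below it. The 90-base coding stretches with the most GAAGA are shown for the called laminins and Col12a1, to let the compositions be compared, with GAAGA in capitals.
Lamc1: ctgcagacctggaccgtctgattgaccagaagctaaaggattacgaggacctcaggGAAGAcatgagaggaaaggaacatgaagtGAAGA
Col12a1: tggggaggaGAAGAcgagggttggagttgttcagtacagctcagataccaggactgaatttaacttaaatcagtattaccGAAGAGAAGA
Lama5: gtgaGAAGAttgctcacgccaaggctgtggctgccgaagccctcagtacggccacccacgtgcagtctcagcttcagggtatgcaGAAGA
Lamb2: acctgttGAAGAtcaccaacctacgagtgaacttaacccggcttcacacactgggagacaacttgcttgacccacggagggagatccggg
They lie in exon 23 of Lamc1 (chr1:153229074-153229163, minus strand), exon 6 of Col12a1 (chr9:79703684-79703773, minus strand), exon 59 of Lama5 (chr2:180181653-180181742, minus strand) and exon 8 of Lamb2 (chr9:108481808-108481897, plus strand), all on mm10. Their GC contents were 48.9%, 43.3%, 58.9% and 54.4% in that order. Of all 90-base coding windows in the genes tested, placed without overlap, 24.9% held at least 1 GAAGA, 5.31% at least 2 and 1.18% at least 3. The stretches shown are the first with the most GAAGA among positions within single exons, so these shares do not say how rare they are. Where positions tie, the GC content is that of the first alone. Col18a1, which was not called, had a stretch with 3 GAAGA, as Col12a1 did. A match is a description and no site of binding.

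Some short annotated transcripts lie inside members on the same strand, outside the exons of the main transcript. Gm44716, inside Col4a1 (chromosome 8, 11290558 to 11291267), had 19.7 and 22.1 TPM in the SAFB RIP, against 4.41 and 7.79 TPM in the IgG RIP. It rose by 1.66 ± 0.35 (limma adjusted p = 0.0263), while Col4a1 itself was not called at -0.08. Gm38009, inside Lamc1 (chromosome 1, 153283850 to 153287190), had 37.1 and 35.2 TPM in the SAFB RIP, against 12.9 and 21.4 TPM in the IgG RIP, and rose by 1.07 ± 0.29 (adjusted p = 0.0460). Neither was called after median centring, at 1.20 and 0.61. Gm37691, inside Lamb3, was not called at -0.12 ± 0.33. The microRNA genes Mir7005 in Lama5 (-0.87 ± 0.35) and Mir455 in Col27a1 (-0.22 ± 0.44) were not called, though Mir7005 was lower after centring, at -1.33. These 5 were picked for their position and not for their values, and they were all those tested that lay inside a tested member on its strand, outside processed pseudogenes.

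Enzymes and chaperones that build collagen were called in both directions. Of 26 tested, 2 rose, 5 fell and 19 were not called in limma, beside 29.8% higher and 8.30% lower over all genes tested. Their median was 0.0081, beside 0.46 over all genes. The members that passed are named here after their values were seen. Ctage5, which helps load collagen at exit sites of the endoplasmic reticulum, averaged 416 ± 50.6 TPM in the SAFB RIP and 90.3 ± 21.4 TPM in the IgG RIP (SD, n = 2), a rise of 2.21 ± 0.20. Plod2, a lysyl hydroxylase, rose by 1.28 ± 0.33, whereas its relatives Plod1 and Plod3 stood at -0.81 and -0.83 and fell. Serpinh1, the collagen chaperone HSP47, fell to 250.2 ± 28.1 TPM in the SAFB RIP, against 397 ± 66.0 TPM in the IgG RIP (-0.66 ± 0.16). Bmp1 and Pcolce, a procollagen protease and its enhancer, also fell, at -0.66 and -1.35. P4hb and Ppib, a prolyl hydroxylase subunit and a folding enzyme, were not called at 0.35 and 0.31, nor was Colgalt1, a collagen galactosyltransferase, at -0.45. After median centring 1 rose and 7 fell (16.4% higher and 17.6% lower over all genes). With the GC trend removed 3 rose and 0 fell (0 at an unadjusted p of 0.05), beside 26.0% higher and 4.90% lower over all genes.

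Receptors for collagens and laminins were also called in both directions. Of 14 tested, 3 rose, 6 fell and 5 were not called, beside 29.8% higher and 8.30% lower over all genes tested, and their median was -0.33, beside 0.46. The integrin chain genes Itgb1 (0.74 ± 0.17), Itga1 (0.93 ± 0.15) and Itga2 (0.74 ± 0.15) rose; their proteins form collagen receptors, and Itgb1 is also part of laminin receptors. The laminin-binding chain genes Itga3 (-1.01 ± 0.13) and Itgb4 (-0.83 ± 0.22), the laminin receptor gene Bcam (-1.15 ± 0.25), the collagen receptor kinase gene Ddr1 (-1.12 ± 0.09) and the syndecan genes Sdc1 (-0.58 ± 0.14) and Sdc4 (-1.04 ± 0.11) fell. Itga6, whose protein binds laminin and is the partner of the Itgb4 protein, stood at 0.65 ± 0.20 with both SAFB libraries above the IgG libraries and was not called (limma adjusted p = 0.0618). Dag1, dystroglycan, was not called at -0.10. The 3 that rose had GC contents of 42.8% to 44.8%, and the 6 that fell 49.3% to 60.8%. After median centring 0 of 14 rose (1 at an unadjusted p of 0.05) and 7 fell, beside 16.4% higher and 17.6% lower over all genes, and with the GC trend removed 1 rose and 1 fell, beside 26.0% and 4.90%.

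Of 13 other basement membrane and matrix genes tested, 1 rose and 2 fell, beside 29.8% higher and 8.30% lower over all genes tested, and their median was -0.31, beside 0.46. Agrn, a heparan sulphate proteoglycan, fell to 414 ± 35.2 TPM in the SAFB RIP, against 877 ± 49.9 TPM in the IgG RIP (-1.08 ± 0.11; limma adjusted p = 0.0068). Hspg2, perlecan, fell by 1.29 on the log2 scale (SE 0.13). Ntn4, a netrin that binds laminin, rose by 1.16 ± 0.25. Fn1, fibronectin, had the highest level of the list, 1503 ± 98.3 TPM in the SAFB RIP and 1324 ± 89.8 TPM in the IgG RIP, and was not called at 0.18 ± 0.12, nor was Sparc at 0.18 ± 0.10. After median centring 0 rose in limma (1 at an unadjusted p of 0.05) and 4 fell, beside 16.4% higher and 17.6% lower over all genes. With the GC trend removed Agrn and Hspg2 stayed lower, at -0.34 and -0.50, and 2 genes were higher, beside 4.90% lower and 26.0% higher over all genes.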

How the data were processed

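RIP-seq libraries of AML12 nuclei (2 SAFB RIP, 2 IgG RIP) were analysed from 1 table of TPM values, which the authors deposited. Build mm10 and the tools StringTie, DESeq2, HTSeq and HISAT2 are listed, per the submitters' processing notes, without versions or roles. The sources used here do not give the tool behind TPM, the annotation or the use of strand. Of 52197 entries, 14 shared an identifier (none a member) and were summed, leaving 52189 genes, of which 52042 are in GENCODE M21.

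Genes at 1 TPM or more in at least 2 libraries were tested on log2(TPM + 1), which understates changes of low genes. The test was limma 3.58.1 in R 4.3.3 (trended variance, Benjamini-Hochberg over 16647 genes, threshold 0.05). The fit had 2 residual degrees of freedom and a prior of 2.5. The procedure was also run on data simulated from its own variance model with no GC trend. That run cannot speak to a GC trend or to replicates that are not independent. Replicates are not said to be separate cultures, so p-values may measure technical spread. Transcript features use 1 model a gene (APPRIS principal, longest coding sequence). The GC trend was a lowess fit (span 0.3) per library.

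The members, lists and rules were chosen with earlier results of these data known, and GAAGA after the values were seen. Named by rule are called members, the 6 highest of each family and the 4 highest of each other list; other genes with values were named after these were seen. In all, 15 alternatives were run. Mia3 was not used here, and 1 laminin is in the counts and medians but its values are not reported here.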

Additional observations from a re-analysis of the deposited data

How the results depend on the processing

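Over 15 alternatives and 14 named members, 164 of 210 values kept direction and side of the threshold. The 2 pseudocounts and the 5 TPM filter changed no count of calls. Leaving out 1 library gave 0 to 2 collagens higher, 0 to 4 lower, 0 to 3 laminins higher and 0 to 2 lower, with medians of -0.23 to -0.11 in collagens and 0.065 to 0.25 in laminins. Without either SAFB library all 4 counts were 0 in limma (at an unadjusted p of 0.05, 2 members without SAFB RIP replicate 1 and 4 without replicate 2). Shares of all genes called were taken only for deposited, centred and GC-adjusted values. Counts under the other alternatives are therefore no result particular to the members. Median centring gave 7 collagens lower, 0 laminins higher and medians of -0.61 and -0.31, quantile normalization 8 lower and medians of -0.51 and -0.39, and protein-coding genes alone 8 lower and medians of -0.38 and -0.12. Under these 3 scalings Col18a1 stood at -0.36, -0.039 and -0.20, Col4a5 at -0.26, -0.12 and -0.094, and Lamb3 at -0.43, -0.39 and -0.26, all turned from deposited values and none called. With the GC trend removed 5 collagens were higher, 0 lower and 1 laminin lower, with medians of 0.48 and 0.53 (0.44 over all genes), and Col15a1 (0.29), Col27a1 (0.53), Col4a1 (0.60), Col4a2 (0.57) and Lamb2 (0.23) turned. With a length trend removed 2 collagens were lower, the collagen median was -0.29 and Lamb3 stood at -0.013. Lamb3 stood at -0.19 without SAFB RIP replicate 2 and at -0.055 without IgG RIP replicate 1. With no filter the collagen median over 35 genes was 0.041, and with no variance trend 1 laminin was lower. The causes of these changes were not tested. With the replicate number as a block, the counts were 1 and 1 in collagens and 1 and 2 in laminins, as without it. Same-numbered libraries did not deviate together (r = -0.025 across genes), and the labels do not say that a number marks a shared lysate, so the numbers were not taken to pair them. Depth is unknown, which limits low members most.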

Other observations

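Matrix proteases and the TGF-beta pathway, which act on or induce matrix genes, were also measured. Of 13 proteases and inhibitors tested, 3 rose and 0 fell in limma (1 lower at an unadjusted p of 0.05), beside 29.8% higher and 8.30% lower over all genes tested. Adam17, the sheddase of TNF, averaged 164 ± 21.9 TPM in the SAFB RIP and 57.4 ± 3.13 TPM in the IgG RIP (SD, n = 2), a rise of 1.496 ± 0.14. Adamts1, a proteoglycan-cutting protease, rose by 1.10 ± 0.14 and Adam10 by 0.59 ± 0.13, while Mmp14, a membrane collagenase, stood at 0.0035 ± 0.14. After median centring 2 were higher and 4 lower, beside 16.4% and 17.6% of all genes. Adam17 and Adamts1 stayed higher, Adam10, at 0.13, did not pass, and Mmp11, Mmp15, Timp1 and Timp2 were lower, at -1.47, -1.28, -1.17 and -0.77, named after their values were seen. With the GC trend removed 3 were higher and 0 lower (0 at an unadjusted p of 0.05), beside 26.0% and 4.90% of all genes.

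Of 16 TGF-beta pathway genes tested, 3 rose and 3 fell, beside 29.8% higher and 8.30% lower over all genes tested. Tgfb3, a ligand, rose by 0.86 ± 0.12, Skil by 0.92 ± 0.17 and Smad7 by 0.50 ± 0.13, both inhibitors of the pathway. Ltbp3 (-0.95 ± 0.10) and Ltbp4 (-1.43 ± 0.38), which hold the latent ligand in the matrix, and the receptor gene Tgfbr2 (-0.54 ± 0.15) fell. After median centring 0 rose in limma (2 at an unadjusted p of 0.05) and 6 fell, beside 16.4% higher and 17.6% lower over all genes. With the GC trend removed 3 rose and 0 fell (1 at an unadjusted p of 0.05), beside 26.0% and 4.90%. Ctgf, a target of the pathway, averaged 606 ± 6.17 TPM in the SAFB RIP and 637 ± 4.86 TPM in the IgG RIP and was not called at -0.07.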
